A study of Danio rerio with 5 samples.

Results

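Claudin mRNAs of the zebrafish blastula were followed in 5 RNA-seq libraries of whole embryos. The 7 genes described are cldna, cldnb, cldnc, cldnd, cldne, cldnf and cldng, taken by symbol from the 32520 genes of the deposited tables. Each symbol matched 1 gene, and 27 further genes have a symbol that starts with cldn. All 7 passed the filter on low counts that 16445 genes passed. The set joins cldnd, known as a maternally supplied transcript, with claudins described in the enveloping layer. That grouping is not one of these data: across the libraries cldng was nearest to cldnd among the 7.

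Claudins are membrane proteins that span the membrane several times and polymerise into the strands of tight junctions, where their extracellular loops meet those of the next cell and set how ions and water pass between cells. In the zebrafish blastula the enveloping layer is the outer epithelium that seals the embryo, and its margin is attached to the yolk syncytial layer while both spread over the yolk in epiboly. Deep cells lie beneath it and form the embryo proper. Maternal mRNAs are being cleared at this stage while the zygotic genome is switched on, so a claudin transcript in a whole embryo can be an inherited one, a newly made one or a mixture.

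Embryos were taken at 4 hours after fertilisation (hpf). One library came from embryos labelled as an RfxCas13d knockdown with 10 guides, a guide against szrd1 with 9 others. One came from a knockdown with 25 guides, the szrd1 guide with 24 others, and 3 libraries came from embryos labelled as RfxCas13d controls. RfxCas13d is an RNA-guided nuclease that cuts RNA and was common to the labels of every group. The sources used here give neither the strain nor the number of embryos per library, and they do not say what else was injected into the controls or what the unnamed guides target. By their labels, the pools differ in how many guides were used together. Nothing says that the controls were separate clutches, so p-values rest on a spread between libraries that may be only technical, and each pool has no replicate.

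Gene counts totalled between 5283761 and 14179837 per library, and reads that named no gene were 53.8% in control replicate 3 and 26.7% to 33.9% in the others. Control replicate 3 and both pools were prepared at 1/8 of the kit's reaction volume, control replicates 1 and 2 at 1/4. The named target szrd1 had 41.3 and 45.6 CPM (read counts scaled to a common library total) in the pools of 10 and 25, against 221, 278 and 311 CPM in control replicates 1 to 3. The most abundant genes listed for the enveloping layer were present in every library. The keratin gene krt18a.1 was between 257.6 and 792.5 TPM (a level scaled for transcript length and library total). The adhesion gene epcam was between 1018 and 1745 TPM. Of the 23 enveloping layer genes listed, pou2f3 had no count in any library, anxa1c was listed at 0 TPM throughout and evplb at 0.05 TPM or less. Others were absent or near 0 in some libraries. cyt1l was at 0 TPM outside control replicate 2 (3.4 TPM), krt17 at 0 TPM in the pool of 25 and anxa1b at 0 TPM in control replicate 3. In control replicate 1, krt5 was at 0.32 TPM and evpla at 0.01 TPM.

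The claudin RNA of these embryos was mainly cldnd and cldng. cldnd (ENSDARG00000006580) had 2136 TPM in the pool of 10 and 1870 TPM in the pool of 25, against 4383, 2775 and 2603 TPM in control replicates 1 to 3. It ranked between place 10 and place 24 of all genes by TPM, depending on the library. cldng (ENSDARG00000003701) had 1280 and 1520 TPM in the pools of 10 and 25, against 2503, 1972 and 1521 TPM in control replicates 1 to 3. In the pools these 2 genes made up 90.4% and 91.1% of the summed TPM of the 7, against 97.5%, 86.5% and 88.9% in the controls. Of all genes with a symbol that starts with cldn they made up less. There they held 3415 of 4667 TPM in the pool of 10 and 3389 of 4532 TPM in the pool of 25. In control replicates 1 to 3 they held 6886 of 7322, 4747 of 5934 and 4125 of 5214 TPM. cldnd was above cldng in 5 of 5 libraries, by a ratio of 1.67 and 1.23 in the pools and 1.75, 1.41 and 1.71 in the controls.

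Claudins of the middle rank were cldne and cldnb. cldne (ENSDARG00000043128), whose product is required for normal epiboly in zebrafish, had 207.6 and 200.8 TPM in the pools of 10 and 25, against 71.6, 299.1 and 290.6 TPM in control replicates 1 to 3. Control replicate 1 was the lowest library, and both pools lay inside the range of the controls. cldnb (ENSDARG00000009544), later a marker of the migrating lateral line primordium, had 97.2 and 102.7 TPM in the pools, against 89.8, 395.4 and 162.5 TPM in the controls. Control replicate 2 alone stood high, and on this scale the pools were again within the control range. Their order was not fixed: cldne exceeded cldnb in both pools and in control replicate 3, and cldnb exceeded cldne in control replicates 1 and 2.

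The scarce genes of the set were cldnc, cldna and cldnf. cldnc (ENSDARG00000015955) had 42.3 and 18.7 TPM in the pools of 10 and 25, against 7.87, 17.8 and 37.0 TPM in control replicates 1 to 3. cldna (ENSDARG00000069888) had 7.16 and 5.05 TPM in the pools, against 5.12, 16.7 and 11.2 TPM in the controls. cldnf (ENSDARG00000043133) had 7.99 and 5.61 TPM in the pools, against 1.71, 14.2 and 12.1 TPM in the controls. For cldna and cldnf, control replicate 2 was the highest library, and cldnc was highest in the pool of 10. Counts of cldnf were between 29 and 283, so its 3.97 CPM in the pool of 25 has an exact Poisson interval at 95% of 2.66 to 5.70 CPM, which covers counting error only.

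By their mean TPM in the controls the order was cldnd (3254 ± 981, SD, n = 3), cldng (1999 ± 492), cldne (220 ± 129), cldnb (216 ± 160), cldnc (20.9 ± 14.8), cldna (10.99 ± 5.80) and cldnf (9.34 ± 6.69). The ranges of the 3 controls did not overlap between cldnd and cldng, between cldng and cldne, or between cldnb and cldnc. They overlapped between cldne and cldnb, between cldnc and cldna, and between cldna and cldnf. Within a library, cldnc was nevertheless above cldna in 5 of 5, whereas cldne was above cldnb in 3 of 5 and cldna above cldnf in 2 of 5. The widest steps in this order were that from cldnb down to cldnc, a ratio of 10.3, and that from cldng down to cldne, a ratio of 9.07.

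**Figure D1:**
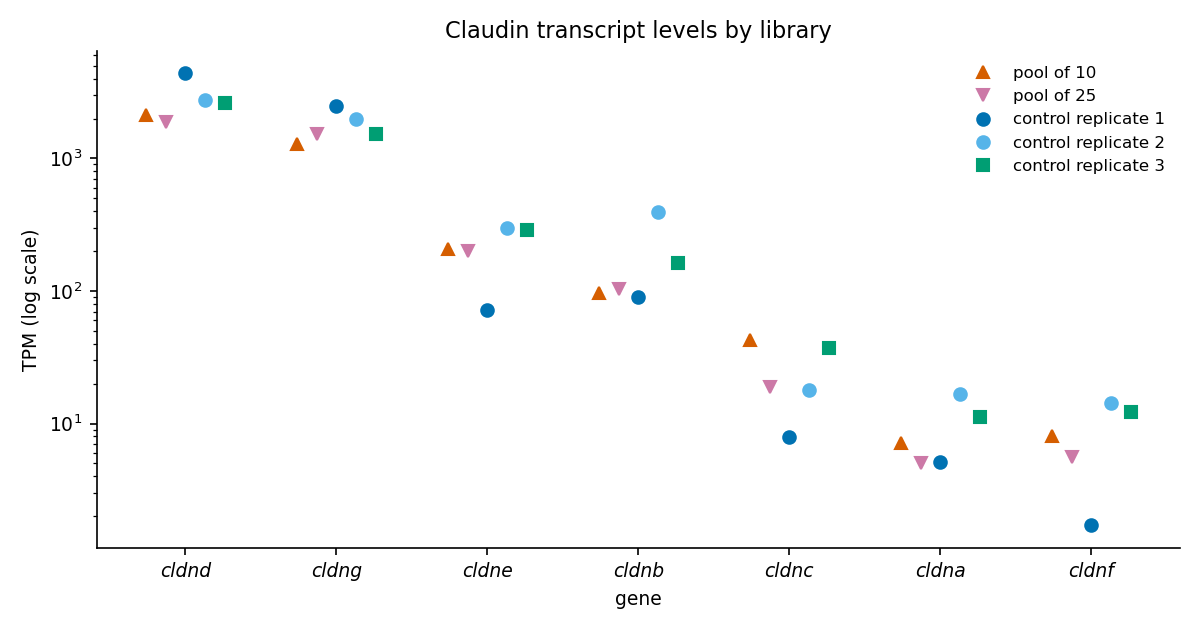
Deposited TPM (vertical axis, log scale) of the 7 claudin genes (horizontal axis, ordered by their control mean); each point is 1 library, with the pools of 10 and 25 guides left of the 3 controls. cldnd and cldng lie above the other claudins plotted in every library, and control replicate 1 is the lowest library for cldne at 71.6 TPM and for cldnf at 1.71 TPM.

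The controls themselves differed for these genes. On the CPM scale, cldnd had 2761, 1874 and 1055 CPM in control replicates 1 to 3, and cldng had 1626, 1339 and 662 CPM, so both were highest in replicate 1 and lowest in replicate 3. The highest control was 2.62 times the lowest for cldnd and 2.45 times for cldng. In contrast, cldne had 126, 561 and 329 CPM and cldnb had 83.2, 394.9 and 97.6 CPM, both highest in replicate 2 and lowest in replicate 1. Their highest control was 4.44 and 4.75 times the lowest. Among 8166 genes with at least 10 CPM in every control the median of this ratio was 1.89, and cldne and cldnb stood at the 96.3 and 97.2 percentiles, cldnd and cldng at 75.5 and 70.8. cldnf ranged from 2.55 CPM in control replicate 1 to 23.8 CPM in control replicate 2, a ratio of 9.32.

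Marker genes of the embryo's layers and stage also differed between the libraries. As deviations of log2 CPM from the mean of the 5 libraries, cldne was at -0.18 and -0.28 in the pools of 10 and 25, and at -1.02, 1.13 and 0.36 in control replicates 1 to 3. The median of the 18 enveloping layer genes that passed the filter was at -0.39 and -0.11 in the pools, and at -0.97, 0.95 and 0.60 in the controls. That list was split. In control replicates 1 to 3, krt4 had 45.1, 372 and 320 CPM and krt8 24.8, 204 and 106 CPM, lowest in replicate 1. Others were lowest in replicate 3: epcam (2070, 2113 and 908 CPM), klf17 (599, 507 and 241 CPM) and dhrs13a.2 (245, 235 and 85.0 CPM). The yolk syncytial layer list of 10 genes that passed the filter was at -0.51 and -0.38 in the pools, and at -0.49, 1.03 and 0.72 in the controls. cldnd was at -0.58 and -0.85 in the pools, and at 1.13, 0.57 and -0.26 in the controls. cldng was at -0.56 in each pool, and at 0.90, 0.62 and -0.40 in the controls. The median of 18 maternal mRNAs was at -0.30 and -0.24 in the pools and at 0.74, 0.56 and -0.40 in the controls. The zygotic deep cell list of 21 such genes was at -0.07 and -0.25 in the pools, and at -0.09, 0.57 and -0.07 in the controls. The summed TPM of the enveloping layer list was 2834 and 3087 in the pools, against 2919 to 3765 in the controls. The gene epcam was the largest part of it. The yolk syncytial layer sum was 269 and 277, against 315 to 502. Most of it was mxtx2, with 203.5 and 232 TPM in the pools and 291, 371 and 264 TPM in control replicates 1 to 3. The maternal sum (8018 and 8340, against 7378 to 9911) and the zygotic deep cell sum (1024 and 1047, against 818 to 1409) lay inside the control range. That of tight junction partners, described below, was 2303 and 2363, against 1459 to 2275. The part of tissue makeup or of stage in the claudin values was not tested. In whole embryos, fewer cells of a type and less RNA per cell cannot be told apart.

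**Figure D2:**
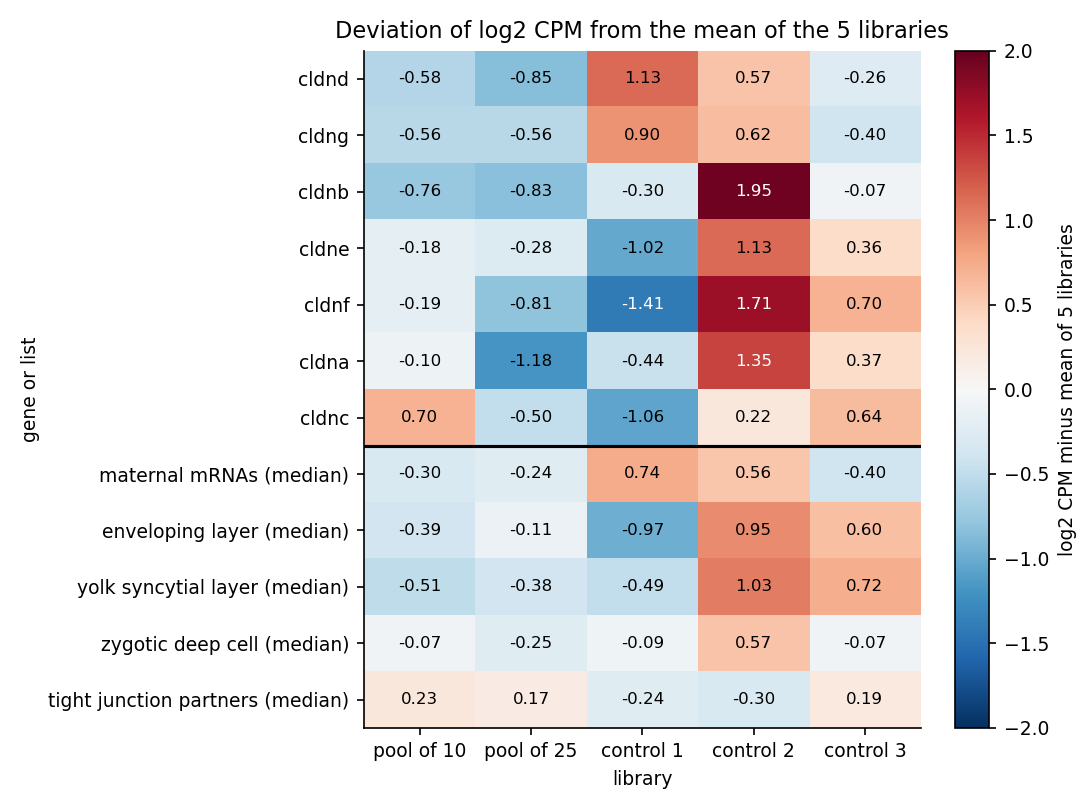
Deviation of log2 CPM from the mean of the 5 libraries (colour and printed value) for the 7 claudins (above the line) and for the medians of 5 gene lists (below it); columns are the pools of 10 and 25 guides and the 3 controls. cldnb, cldne, cldnf and cldna have their highest value in control replicate 2 (1.13 to 1.95), as the medians of the enveloping layer (0.95), yolk syncytial layer (1.03) and zygotic deep cell (0.57) lists do, while cldnd and cldng are highest in control replicate 1 (1.13 and 0.90).

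The pools were then set against the controls in edgeR's quasi-likelihood test, with p-values adjusted over all 16445 genes. The test of both pools together takes the pools as replicates of each other, although their guide mixes differ. Its intervals and p-values rest on that assumption and are not replicated evidence for either pool. No claudin passed in the pool of 10, in the pool of 25 or in both pools together, and neither did any other gene (0% called in each comparison). The named target szrd1 was among the genes not called (log2 fold change -2.63 for both pools, adjusted p = 0.232 in edgeR). A lack of calls therefore does not show that levels were equal. At an unadjusted p under 0.05, both pools together had 3 of the 7 claudins, beside 1749 genes or 10.6% of all tested (6.66% lower in the pools). At that level the pool of 10 alone had 0 of 7, beside 3.22% of all genes (1.8% lower), and the pool of 25 alone had 0 of 7, beside 3.05% (1.84% lower). DESeq2 and limma voom also called 0 of 7 in every comparison, while DESeq2 called 11 genes (0.0845% of those with an adjusted p) in each pool and 104 (0.608%) in both together. The 3 claudins with an unadjusted p under 0.05 were cldnd, cldnb and cldng, all lower in the pools. With a term for library volume, szrd1 was called for both pools (-2.84, adjusted p = 0.0209 in edgeR) and 0 of 7 claudins were. That term sets the pools against control replicate 3.

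cldnd had 844 and 703 CPM in the pools of 10 and 25, or 44.5% and 37.05% of its control mean of 1897 ± 853 CPM (SD, n = 3). Both pools lay below the lowest control, which was replicate 3. For both pools against the controls its log2 fold change was -1.29 (SE 0.429, 95% interval -2.25 to -0.34, unadjusted p = 0.0128, adjusted p = 0.464 in edgeR). On TPM the pools held 65.6% and 57.5% of the control mean. Against control replicate 3, the only control of the same library volume, the pools had 80.0% and 66.6% of its CPM. A term for library volume sets the pools against that same library, so it is not separate evidence. Volume and anything else particular to control replicate 3 cannot be told apart by it. Alone, the pool of 10 was at -1.17 (unadjusted p = 0.103, adjusted p = 0.951 in edgeR) and the pool of 25 at -1.43 (unadjusted p = 0.0558, adjusted p = 0.913 in edgeR). With a term for library volume the log2 fold change of both was -0.45 (interval -1.08 to 0.18, adjusted p = 0.673 in edgeR).

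cldng had 594 CPM in the pool of 10 and 594 CPM in the pool of 25, or 49.1% of its control mean of 1209 ± 495 CPM in each. The pools were below all controls here too. Its log2 fold change for both pools was -1.03 (SE 0.419, 95% interval -1.96 to -0.09, unadjusted p = 0.0341, adjusted p = 0.465 in edgeR). Against control replicate 3 the pools had 89.6% and 89.7% of its CPM, and with the volume term the log2 fold change was -0.16 (interval -0.71 to 0.40). On TPM the pool of 25, at 1520, was next to control replicate 3, at 1521.

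cldnb had 60.5 and 57.6 CPM in the pools of 10 and 25, or 31.5% and 30.02% of its control mean of 192 ± 176 CPM. The pools were below every control on CPM, although control replicate 1 was at 83.2 CPM and control replicate 3 at 97.6 CPM, and they were inside the control range on TPM. Its log2 fold change for both pools was -1.70 (SE 0.665, 95% interval -3.18 to -0.22, unadjusted p = 0.0283, adjusted p = 0.464 in edgeR), and -0.72 (interval -2.17 to 0.72) with the volume term. Control replicate 2, at 394.9 CPM, was above the other controls together.

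Both pools were below all controls on CPM for 3 of 7 claudins, beside 14.9% of all genes tested, and above all controls for 0 of 7, beside 14.6%. On TPM 2 of 7 were below, cldnd and cldng, beside 7.48% of genes. For cldng that place is close to a tie, with 1520 TPM in the pool of 25 and 1521 TPM in control replicate 3. Without control replicate 1 the count was 6 of 7, all but cldnc, beside 19.7% of genes. It was 3 of 7 without control replicate 2 or control replicate 3, beside 17.8% and 33.4%. Without control replicate 3 edgeR called the same 3 genes lower in both pools (cldnd at -1.59 with adjusted p = 0.00232, cldng at -1.33 with adjusted p = 0.0025, cldnb at -2.04 with adjusted p = 0.0277), beside 12.8% of all genes called lower. All controls left were then of the other library volume, so pool and volume cannot be told apart in that fit.

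For the other 4 claudins, both pools together overlapped the controls on CPM. cldne had 227 and 212 CPM in the pools of 10 and 25, against 126, 561 and 329 CPM in the controls. It had a log2 fold change of -0.63 for both pools (SE 0.544, 95% interval -1.84 to 0.59, adjusted p = 0.642 in edgeR). This difference turned to 0.15 on log2(TPM + 1), where the median of all genes was 0.32, against -0.08 in the counts. cldnf had 6.21 and 3.97 CPM in the pools, against 2.55, 23.8 and 11.8 CPM in the controls (-1.32, interval -3.14 to 0.50). cldna had 10.9 and 5.06 CPM in the pools, against 8.59, 30.4 and 15.2 CPM in the controls (-1.18, interval -2.59 to 0.23). The pool of 25, with 37 counts, was below every control for cldna on CPM, beside 25.1% of all genes. On TPM that place was close to a tie, with 5.05 in the pool of 25 and 5.12 in control replicate 1. The log2 fold change of cldna in the pool of 25 was -1.83 (interval -3.89 to 0.22, unadjusted p = 0.0755, adjusted p = 0.913 in edgeR). The pool of 10 was within the control range. cldnc had 40.3 and 17.4 CPM in the pools, against 11.7, 28.9 and 38.6 CPM in the controls, so the pool of 10 was above every control, beside 23.6% of all genes, and the pool of 25 within the control range. Its log2 fold change for both pools was 0.13 (interval -1.13 to 1.39), and -0.42 with the volume term. Against control replicate 3 alone, cldne was at 69% and 64.5%, cldnf at 52.8% and 33.7%, cldna at 71.8% and 33.2%, and cldnc at 104% and 45.0% of its CPM in the pools of 10 and 25.

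**Figure D3:**
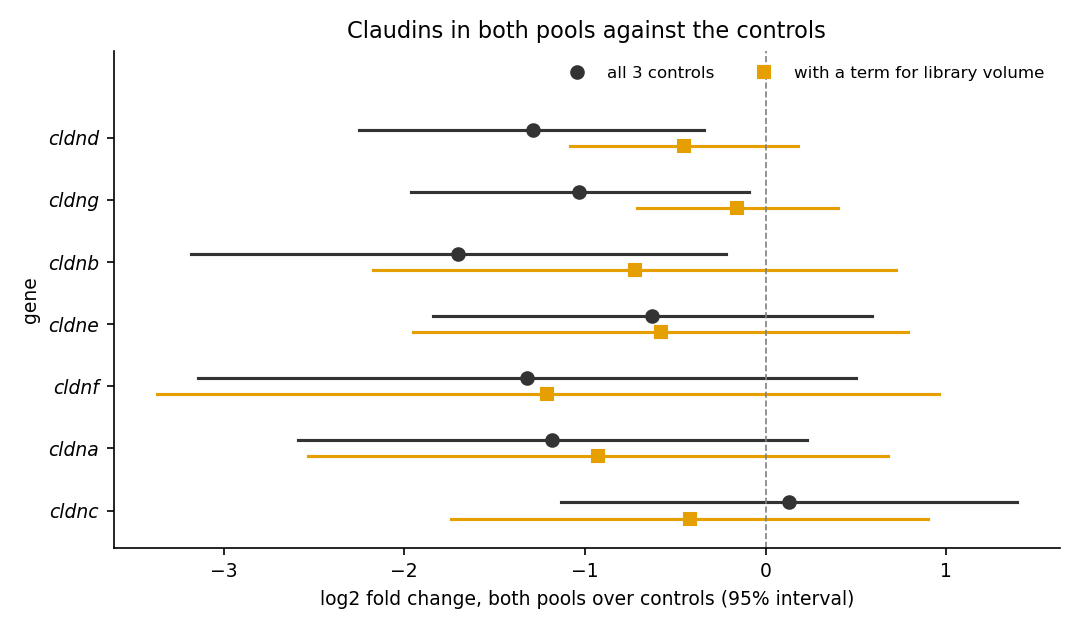
Log2 fold change of each claudin, both pools over the controls (horizontal axis), from edgeR's quasi-likelihood fit with all 3 controls (circles) and with a term for library volume (squares); lines are 95% intervals and the dashed line marks no difference. The intervals of cldnd, cldng and cldnb lie below 0 with all controls and include 0 with the volume term, which moves cldnd to -0.45 and cldng to -0.16. That term sets the pools against control replicate 3, the only control of their volume. Both fits take the pools as replicates of each other.

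As a set, 6 of 7 claudins had a log2 fold change below 0 for both pools, with a median of -1.18, beside 53.4% of all genes and a median of -0.08. With the volume term the medians were -0.58 for the 7 and 0.02 for all genes. The pools were compared with the same 3 controls, so their separate values are not independent. In the pool of 10 alone, 6 of 7 were below 0, beside 54.9% of all genes, and the claudin median was -1.03. In the pool of 25 alone, 7 of 7 were below 0, beside 55% of all genes, and the claudin median was -1.43.

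The pools did not separate from each other for any claudin (0 of 7 called, 0% of all genes, with 0.791% of genes at an unadjusted p under 0.05 and 0.334% lower at that level). The log2 fold change of the pool of 25 over the pool of 10 was -0.26 for cldnd (95% interval -1.91 to 1.39), which allows ratios from 0.265 to 2.61. It was 0.00 for cldng (interval -1.66 to 1.67) and -0.07 for cldnb (interval -2.43 to 2.29). The widest gaps were those of cldnc (-1.21, interval -3.29 to 0.87, unadjusted p = 0.226 in edgeR) and cldna (-1.11, interval -3.40 to 1.18, unadjusted p = 0.308 in edgeR). With 1 library a pool, these intervals allow large differences in either direction, and 49.2% of all genes were below 0 in this comparison. The gaps also depended on the scale. On log2(TPM + 1) they were -0.43 for cldna, -1.13 for cldnc, -0.19 for cldnd and 0.25 for cldng, where the median of all genes was 0.05.

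Position in the genome was described from the RefSeq gene table of the assembly GRCz12tu, which is not the build of the files, so only the order of genes is used. All 7 genes matched it by symbol or synonym. cldne, cldnf and cldna are consecutive genes in a run of 4 that opens with cldnj. cldnc, cldnb and cldnd lie in a run of 9 genes, 7 of them protein-coding and all claudins by their RefSeq symbols, and cldng lies apart from both runs. Tandem paralogs can share reads. The deposited count tables hold reads that map to several places in an entry apart from the genes, and no source used here says how the deposited TPM treats them.

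Neighbours in these runs differed widely in level. cldnj, next to cldne, had no count in any library, which allows at most 0.519 CPM in the shallowest one (3 counts). cldnf and cldna, on the other side, were at 9.34 ± 6.69 and 10.99 ± 5.80 TPM in the controls (SD, n = 3), against 220 ± 129 TPM for cldne. In the other run, zgc:112437, which RefSeq names cldn29 and places directly beside cldnd, had 1.94 and 1.38 TPM in the pools of 10 and 25, against 5.97, 10.8 and 2.91 TPM in control replicates 1 to 3. cldnd was thus at 1870 TPM or more in every library while this neighbour stayed at 10.8 TPM or less. zgc:136892, which RefSeq names cldn30, had 30.3 and 23.2 TPM in the pools, against 9.40, 18.5 and 21.3 TPM in the controls. Beyond cldnc, cldnh was listed at 0 or near 0, with at most 7 counts in a library. The RefSeq gene cldn28, between cldnd and cldn30, was not matched to a gene of the files.

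**Figure D4:**
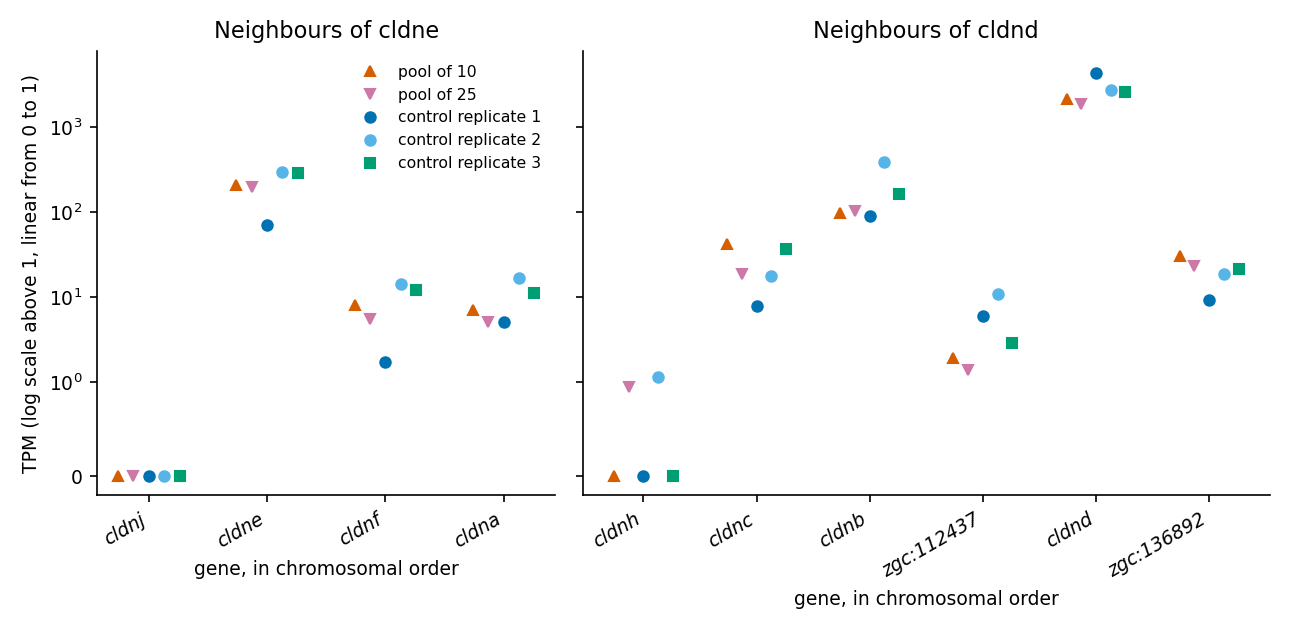
Deposited TPM (vertical axis, log scale above 1 and linear from 0 to 1) of matched claudin genes in chromosomal order, for the run with cldne (left) and the run with cldnd (right); each point is 1 library, pools left of controls. cldnd stands at 1870 TPM or more in every library beside zgc:112437 at 10.8 TPM or less, and cldnj is at 0 throughout.

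Among the 27 other genes with a symbol that starts with cldn, 13 passed the filter and none was called in any comparison. For both pools, 8 of these 13 were below 0, with a median log2 fold change of -0.13, and 0.63 with the volume term. The latter rests on control replicate 3, where several of these genes were near the floor. There cldn2 and cldn11a had 0 counts (7.77 and 4.89 with the term) and cldn17 had 4 (2.24). In the other direction, cldni had 11 counts there (-2.43), so no rise of this group can be read from that median. cldn7b, a claudin of many epithelia, had 361 and 439 TPM in the pools of 10 and 25, against 165, 245 and 297 TPM in control replicates 1 to 3. It was above both cldne and cldnb in both pools and in control replicates 1 and 3, and below both in control replicate 2. On TPM both pools were above every control for cldn7b, beside 22.7% of all genes tested. On CPM the pools overlapped the controls, with 435 and 491 against 303.5, 476 and 332. The log2 fold change of cldn7b for both pools was 0.32 (adjusted p = 0.711 in edgeR). cldn23a had 418.5 and 268.8 TPM in the pools, against 23.3, 123 and 161 TPM in the controls. In both pools it was above every control on both scales, beside 14.6% of all genes tested on CPM and 22.7% on TPM. Its log2 fold change for both pools was 1.29 (SE 0.603, 95% interval -0.05 to 2.63, adjusted p = 0.465 in edgeR), and 1.05 with the volume term. cldn12 had 51.3 and 49.1 TPM in the pools, against 17.98, 13.6 and 53.8 TPM in the controls. The 7 described genes held 80.9% and 82.1% of the TPM of all genes with such symbols in the pools, against 96.4%, 92.5% and 89.0% in the controls. cldn18 had no count in any library although the deposited TPM listed it between 1.10 and 17.4, so its levels in the deposited tables go against each other.

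Genes of other tight junction and polarity proteins were described as a further list. Of the 40 genes found for 43 listed symbols, 37 passed the filter and 0 were called in any comparison. For both pools 15 were below 0 and 22 above 0, with a median log2 fold change of 0.26, against -1.18 for the 7 claudins and -0.08 for all genes. With the volume term the median was -0.01 for this list, -0.58 for the 7 claudins and 0.02 for all genes. Its 4 most abundant genes were all below 0 in the counts. f11r.1, which encodes a junctional adhesion molecule, had 425.5 and 416 TPM in the pools of 10 and 25, against 301, 394.5 and 367 TPM in control replicates 1 to 3. Its pools were above all controls on TPM, beside 22.7% of all genes tested, but on CPM they lay inside the control range. Its log2 fold change for both pools was -0.26 (adjusted p = 0.773 in edgeR). The occludin gene oclna had 333 and 359 TPM in the pools, against 239, 210.2 and 371 TPM in the controls. On CPM it had 394 and 400.5 in the pools, against 449, 424 and 436 in the controls. The pools thus overlapped the controls on TPM and were below all of them on CPM, beside 14.9% of all genes tested (log2 fold change -0.14, adjusted p = 0.869 in edgeR). Its paralog oclnb had 157.5 and 164 TPM in the pools, against 94.7, 134 and 158 TPM in the controls (-0.15). crb3b, of the Crumbs polarity complex, had 178 and 129 TPM in the pools, against 145, 138 and 162 TPM in the controls (-0.40). None of these 4 passed the test.

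The smallest unadjusted p-values of that list for both pools belonged to jam3a, which encodes another junctional adhesion molecule, and ildr1b, of the angulin family of tricellular junctions. jam3a had 5.23 and 2.67 TPM in the pools, against 7.34, 9.97 and 6.35 TPM in the controls (log2 fold change -1.39, SE 0.615, unadjusted p = 0.0475, adjusted p = 0.465 in edgeR). ildr1b had 67.6 and 57.4 TPM in the pools, against 29.4, 27.8 and 35.9 TPM in the controls (0.68, SE 0.367, unadjusted p = 0.0934, adjusted p = 0.488 in edgeR). Only 1 of the 37 genes was at an unadjusted p under 0.05 in edgeR, beside 10.6% of all genes tested. Counts of jam3a were 47 and 26 in the pools, against 139, 236 and 41 in control replicates 1 to 3. With the volume term jam3a was at -0.52 and ildr1b at 0.92.

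The lists of the embryo's layers and stage gave these values beside the claudins for both pools, with 0 genes called in each. Enveloping layer genes had a median log2 fold change of -0.96 with 14 of 18 below 0, and -0.59 with the volume term. Their most abundant members by CPM were epcam, with 1018 and 1177 TPM in the pools against 1745, 1732 and 1432 TPM in the controls, and krt18a.1, with 770.5 and 755 TPM against 258, 792.5 and 759 TPM. Yolk syncytial layer genes had a median of -0.95 with 7 of 10 below 0, and -0.35 with the volume term. Their regulator gene mxtx2 had 203.5 and 232 TPM in the pools against 291, 371 and 264 TPM in the controls. The related mxtx1 had 14.0 and 16.9 TPM against 10.9, 27.0 and 22.2 TPM. This list was split as well. In it hnf1ba had 23.9 and 7.25 CPM in the pools, against 0.936, 3.45 and 10.7 CPM in the controls. Likewise slc26a1 had 6.21 and 5.20 CPM, against 1.02, 4.37 and 6.06 CPM. For hnf4b, control replicate 3 had 185 counts and every other library 12 or fewer. Maternal mRNAs had a median of -0.63 with 16 of 18 below 0, and 0.13 with the volume term. The maternal cyclin gene ccna1 had 2278 and 2919 TPM in the pools against 2847, 1580 and 2375 TPM in the controls, and the linker histone gene h1m had 559 and 581 TPM against 1103, 878 and 584 TPM. Zygotic deep cell genes had a median of -0.41 with 16 of 21 below 0, and -0.15 with the volume term. Among them aplnrb, an apelin receptor gene, had 249 and 225 TPM against 99.0, 172 and 211 TPM, and her5 had 164 and 144 TPM against 177, 264 and 178 TPM. The medians come from counts, and TPM can place a gene differently. On CPM aplnrb had 280 and 239 in the pools, against 175, 326 and 228 in the controls (log2 fold change 0.09). On that scale ccna1 had 2108 and 2518, against 4124, 2408 and 2164 (-0.33).

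Genes most like each claudin were sought by the Euclidean distance between log2 CPM profiles, each centred over the 5 libraries, among 9609 genes with a mean of at least 10 CPM. With 5 libraries that share depth and volume differences, likeness is a description only. The nearest to cldnd were PSMA2, named as a proteasome subunit gene (distance 0.19), and the tetraspanin gene tspan36 (0.20). Those nearest to cldng were atf7ip2 (0.10) and the ATP synthase subunit gene atp5po (0.10). cldnd and cldng were themselves 0.40 apart, the closest pair among the 7. Nearest to cldnb were the keratin gene krt97 (0.29), which is also in the enveloping layer list, and spaca4l (0.31). krt97 had 5.81 and 6.16 CPM in the pools of 10 and 25, against 9.87, 48.4 and 12.3 CPM in control replicates 1 to 3, and shares the high value in control replicate 2 with cldnb.

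The remaining claudins had as their nearest profiles fam13a (0.22) and pitpnc1b (0.26) for cldne, slc13a4 (0.42) and s100v2 (0.57) for cldna, zgc:153665 (0.53) and zgc:153018 (0.60) for cldnf, and cpped1 (0.23) and rfx7a (0.25) for cldnc. Among the 7 themselves, cldne and cldnf were 0.94 apart and cldna and cldnb 1.05 apart, while cldnd was 2.41 from cldne and 2.97 from cldnf. cldne and cldnf are neighbours in the genome, and cldnd and cldng, the closest pair in profile, are not.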

How the data were processed

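RNA of 5 libraries was sequenced. The authors deposited whole-number gene counts and, per gene, a second value read as TPM because it sums to the same total in every library and its ratio to the counts depends on the gene. The 2 scales also differ by library. CPM over TPM for cldnd was 0.63 and 0.675 in control replicates 1 and 2, but 0.405 in control replicate 3. It was 0.395 and 0.376 in the pools of 10 and 25, so CPM and TPM can order pools and controls differently. The change between libraries also depends on the gene: for cldna the ratio was 1.53 and 1 in the pools of 10 and 25. Demultiplexing by bcl2fastq 2.20 and the build danRer11 are named per the submitters' processing notes; no source used here names the aligner or counter. Entries that name no gene (26.7% to 53.8% of reads) were left out. CPM used TMM scaling. edgeR 4.0.16 (R 4.3.3) tested genes that passed its expression filter (minimum count 10) with a quasi-likelihood F test, Benjamini-Hochberg adjustment and a threshold of 0.05. Single pools came from a fit of 3 groups (2 residual degrees of freedom, the spread coming from the controls). Both pools came from a fit of 2 groups (3 degrees), which takes the pools as replicates of each other. SE is the log2 fold change divided by the root of F. The volume term left 1 and 2 degrees of freedom and sets the pools against control replicate 3. Alternatives used DESeq2 1.42.0, limma 3.58.1, other scalings, no filter, log2(TPM + 1) or log2(TPM + 0.1) for genes with at least 1 TPM in a library, and each control left out. The script was tested on simulated data. Members, lists and rules were chosen with earlier results of these data known: named are the 7 genes, the most abundant of each list, the 2 smallest unadjusted p of tight junction partners, and the 2 nearest profiles (log2 CPM with a prior count of 2). Sequences were not used here.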

Additional observations from a re-analysis of the deposited data

How the results depend on the processing

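No claudin was called in any comparison under 10 of 11 alternatives; both pools without control replicate 3 had 3. Leaving out 1 control at a time gave 0 to 3 called claudins for both pools, and 3 to 6 claudins with both pools below all controls on CPM (6 without control replicate 1, an alternative chosen after seeing the data). Genes called for the pool of 10 were 19 with no filter on low counts, 11 with DESeq2 and 0 to 7 with 1 control left out. For the pool of 25 they were 10 with no filter, 11 with DESeq2 and 0 to 5 with 1 control left out. For both pools they were 137 with no filter, 104 with DESeq2, 2 on log2(TPM + 1), 1 on log2(TPM + 0.1), 10 with the volume term and 0 to 4210 with 1 control left out, the 4210 being without control replicate 3. Of 308 claudin fold changes under an alternative, 290 kept their direction and side of the threshold, 3 passed it (cldnb, cldnd and cldng, without control replicate 3) and 15 changed sign, none of them called. On log2(TPM + 1) and log2(TPM + 0.1), cldne turned to 0.17 and 0.17 (pool of 10), 0.12 and 0.13 (pool of 25), and 0.15 and 0.15 (both). cldnf turned to 0.14 and 0.25 in the pool of 10, cldnc to 0.09 and 0.11 in the pool of 25, and cldnb to 0.08 and 0.08 in the pool of 25 over the pool of 10. cldng turned to -0.01 between the pools with no filter, and cldnc for both pools to -0.42 with the volume term and between -0.23 (without control replicate 1) and 0.48 with 1 control left out. For both pools, adjusted p ranged over the alternatives (edgeR, DESeq2 and limma) between 0.00232 and 0.897 for cldnd, 0.0277 and 0.897 for cldnb, and 0.0025 and 0.897 for cldng. The cause of these shifts was not tested. No paired analysis was possible because each pool is 1 library and the groups share fewer than 2 replicate numbers. Counts under 50 in a library limit cldnf and cldna.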
